A study of Homo sapiens with 6 samples.

Results

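Genes for 10 surface proteins with which tumour cells restrain immune attack were followed in T24, a bladder carcinoma cell line. They were chosen by symbol and correspond to 10 of 58233 rows with an Ensembl identifier, and all 10 passed the minimum level for testing. They are the checkpoint ligands CD274, PDCD1LG2, CD276, PVR and NECTIN2, the phagocytosis inhibitor CD47, the complement regulators CD46, CD55 and CD59, and the ecto-enzyme NT5E. The control group (VEC) carried the lentiviral vector, and the other group (Q63E) carried a constitutively active mutant of the GTPase RhoC, with 3 RNA sequencing libraries each. Both groups were stably transduced and kept under puromycin selection. The labels do not say whether either line was a clone or whether the libraries came from separate cultures, so the p-values speak for the variation among these 6 libraries, some or all of which may be technical.

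Checkpoint ligands sit on the tumour cell and bind receptors on T cells, natural killer cells or macrophages, where most of them damp the response. CD274 (PD-L1) and PDCD1LG2 (PD-L2) engage PD-1, and antibodies against PD-1 or PD-L1 are used in bladder cancer. Membrane complement regulators keep a cell's own surface from being attacked by complement: CD46 helps factor I to inactivate C3b and C4b, CD55 speeds the decay of the convertases, and CD59 blocks assembly of the membrane attack complex. NT5E (CD73) makes adenosine, which suppresses lymphocytes, from extracellular AMP. CD55, CD59 and NT5E are held in the membrane by a glycosylphosphatidylinositol (GPI) anchor, while the other 7 proteins span it.

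The libraries summed to between 726929 and 769026 in the deposited unit, taken here as FPKM (fragments per kilobase of transcript, scaled to library size), a level corrected for length. RHOC, the check of the labels, averaged 227 ± 8.27 (SD, n = 3) in the VEC libraries and 1746.4 ± 22.3 (SD, n = 3) in those of Q63E, with the cell's own and the transduced transcript in 1 row. Of 7 tested epithelial, urothelial and related markers 5 rose and 1 fell, where 11.3% of all genes tested rose and 14.0% fell. The keratin genes KRT8 and KRT18 rose from 581 ± 2.12 to 985 ± 8.79 and from 515 ± 6.54 to 788 ± 1.66, and KRT19 from 5.67 ± 0.393 to 161 ± 1.85. VIM (vimentin, an intermediate filament of mesenchymal cells) fell from 3212.1 ± 42.9 to 2193 ± 92.5. Its log2 fold change was −0.55, and the tested genes nearest to it on chromosome 10 had a median of −0.47. The fall of VIM was thus little larger than that of its neighbours, and whether it is specific to VIM was not tested. CDH2 (N-cadherin, also of mesenchymal cells) rose from 33.5 ± 1.41 to 44 ± 1.2 (adjusted p = 0.0024 in limma). It is among the 5 that rose and is named outside the rule. CDH1, KRT5 and UPK3A were listed at 0 in all 6 libraries, and all 4 uroplakin genes stayed below 1. Of 13 leukocyte markers 12 were below 1 in all 6 libraries, with PTPRC, CD3D, CD3E, MS4A1 and FCGR3A among those listed at 0. Their summed level was 19.34 to 21.02 in VEC and 10.58 to 12.09 in Q63E, nearly all of it CD68, a lysosomal protein gene that is also active outside leukocytes. Of 8 fibroblast markers 7 and of 7 endothelial markers 7 were below 1 throughout, with sums of 1.9 to 2.34 in VEC and 2.44 to 3.7 in Q63E, and of 0.22 to 0.32 and 0.09 to 0.49. COL1A1, the fibroblast marker that was tested, did not pass (1.3 ± 0.155 and 2.21 ± 0.561, adjusted p = 0.105 in limma), while CD68 fell from 18.5 ± 0.909 to 10.1 ± 0.879. Mitochondrial genes held 8.44% to 9.437% of the summed level in VEC and 5.577% to 6.267% in Q63E. The part of these differences in the results was not tested.

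Among the 10 genes, 3 passed the test and all 3 were lower in Q63E: NT5E, CD55 and CD59. These are the GPI-anchored members, a grouping made after the values were seen, so the split by anchor is a description and no test. None of the 7 transmembrane members passed, though NECTIN2 and CD46 came near (adjusted p = 0.0563 and 0.0697 in limma). Of the 7, 3 had an unadjusted p below 0.05 in limma (NECTIN2, CD46 and PVR). At the same unadjusted threshold lay 38.2% of all genes tested. The test was limma on log2(FPKM + 1) over all 13346 genes with a mean of at least 1, with Benjamini-Hochberg adjustment and a threshold of 0.05. Across all genes tested 25.3% passed, 14.0% lower and 11.3% higher (1873 and 1510 genes), so the share of members called in either direction, 30.0%, is near that of the transcriptome. The balance of directions turned when each library was rescaled to the same total over all rows, with 1594 genes lower and 1829 higher. The groups did not overlap for 7 members (5 lower and 2 higher in Q63E), against 43.9% of all genes tested (22.8% lower and 21.1% higher). In bulk RNA, fewer cells with a transcript and less of it per cell cannot be told apart. The median log2 fold change was −0.14 over the 10 genes and −0.002 over all genes tested.

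**Figure D1:**
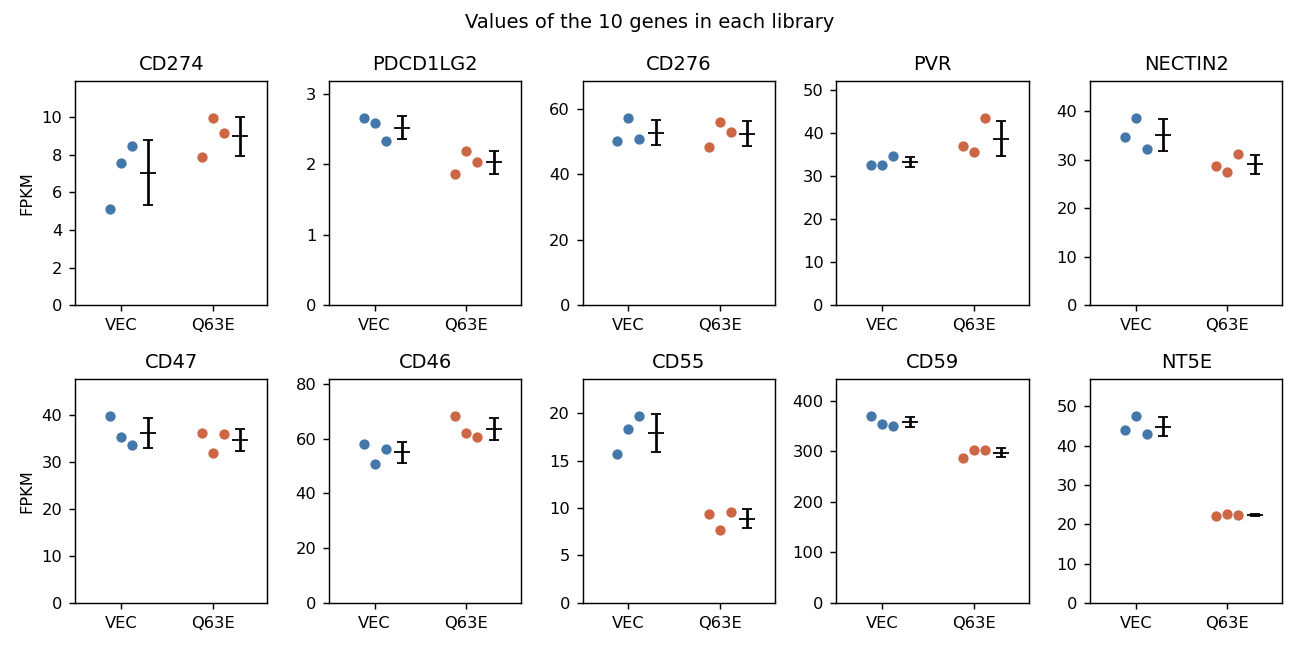
Level of each gene in FPKM (vertical axes, from 0, a different range per gene) in the 3 VEC and 3 Q63E libraries (points), with the mean and SD of each group beside them (black). NT5E, CD55 and CD59 lie lower in every Q63E library than in any VEC library, while the points of CD276, CD47 and CD274 overlap between groups.

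The promoter sequences that follow show where the start regions of 3 of these genes hold, or lack, letters recognised by factors known to act on immune surface genes. The plan covered the members that passed the test, and CD274, which did not pass, was added to them. The 250 bases before each RefSeq start (RefSeq, GRCh38.p14) were searched on both strands for 5 short motifs: GAS (TTCNNNGAA, bound by STAT dimers), ISRE (GAAANNGAA, bound by interferon regulatory factors), NF-kB (GGNNNTTCC), AP-1 (TGANTCA) and TEAD (GGAATG). Of 35116 promoters of the same length, GAS was in 6.57%, ISRE in 6.88%, NF-kB in 17.1%, AP-1 in 6.57% and TEAD in 11.9%. The table held promoters of 9 of the 10 genes. Printed stretches stop where the first exon of any GENCODE 29 transcript begins, and matches are in capitals.
CD274, chr9:5450292-5450502, plus strand: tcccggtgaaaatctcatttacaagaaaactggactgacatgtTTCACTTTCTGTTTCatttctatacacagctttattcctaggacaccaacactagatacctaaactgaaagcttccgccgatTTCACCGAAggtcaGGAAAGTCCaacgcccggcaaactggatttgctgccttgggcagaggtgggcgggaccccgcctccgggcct
CD59, chr11:33736492-33736729, minus strand: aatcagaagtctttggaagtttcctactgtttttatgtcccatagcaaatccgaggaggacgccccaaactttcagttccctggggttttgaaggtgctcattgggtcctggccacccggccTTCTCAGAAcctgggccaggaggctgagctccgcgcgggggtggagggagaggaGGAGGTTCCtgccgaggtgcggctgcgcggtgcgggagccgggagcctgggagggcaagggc
NT5E, chr6:85449859-85449887, plus strand: ctccccgccgGGAACAACCtctccactct

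The CD274 stretch held 2 overlapping ISRE matches in the minus-strand reading, 1 GAS match and 1 NF-kB match. The upstream-most CD59 start had 1 GAS and 1 NF-kB match. Another CD59 start, further downstream and not printed, had 2 AP-1 matches. Of the genes not printed, CD276 had 1 NF-kB match and PVR 1 TEAD match. The NT5E window had 1 match, to the NF-kB letters, and it is shown with 10 bases on each side because the whole window lies in the first exon of a longer GENCODE transcript. The CD55 window, also inside such an exon, held none of the 5 motifs. A match is only a string of letters and says nothing of binding in these cells.

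NT5E had the smallest p of the 10, and its fold difference was nearly equal to that of CD55, described next. Its level was 43.99, 47.54 and 42.95 in the VEC libraries and 22.06, 22.63 and 22.41 in the Q63E libraries. The groups are far apart, and the Q63E libraries lie within 0.6 of each other. The gene (ENSG00000135318, chromosome 6 from 85449584 to 85495791, plus strand, GRCh38) fell to 49.9% of its VEC mean, with a log2 fold change of −0.97 (SE 0.052, adjusted p = 0.000114 in limma), against −0.93 for CD55. The order of these 2 genes turned with a pseudocount of 0.01 (NT5E −1, CD55 −1.01) and without VEC replicate 1 (NT5E −0.98, CD55 −1.02). By p it ranked 72 of the 13346 genes, and 4.45% of genes tested had a larger change in either direction. Its 50 nearest tested neighbours had a median log2 fold change of 0.03, with 1 of them called lower and 2 higher.

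The genes whose pattern over the 6 libraries lay nearest to that of NT5E were NINJ1, RIGI, CCDC71L and FBLN1. Likeness was the Euclidean distance between log2 values taken relative to each gene's VEC mean, over 11558 protein-coding genes, and the 4 distances ran from 0.126 to 0.142. NINJ1, a membrane protein that ruptures dying cells, went from 34.7 ± 0.542 to 17.4 ± 0.753 (SD, n = 3 each). RIGI, a cytoplasmic sensor of viral RNA, went from 11.7 ± 0.367 to 5.32 ± 0.325. FBLN1, which encodes the matrix protein fibulin 1, went from 115 ± 5.89 to 56.2 ± 2.62, and CCDC71L from 7.78 ± 0.71 to 3.59 ± 0.125. They lie on chromosomes 9, 9, 22 and 7, none of them the chromosome of NT5E.

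CD55, the decay-accelerating factor, showed a similar fold difference from a lower level. The VEC libraries had 15.72, 18.3 and 19.68, and the Q63E libraries had 9.4, 7.71 and 9.56. Every Q63E value is below every VEC value, with a gap wider than the spread inside either group. CD55 (ENSG00000196352, chromosome 1 from 207321376 to 207386804, plus strand) fell to 49.7% of its VEC mean, with a log2 fold change of −0.93 (SE 0.112, adjusted p = 0.00203 in limma). Its 95% interval runs from −1.2 to −0.67, and 4.8% of genes tested had a larger change.

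CD59, the inhibitor of the membrane attack complex, changed less but was the most abundant of the set. It stood at 369.8, 354.6 and 349.57 in VEC and at 286.87, 302.93 and 302.7 in Q63E. Its level exceeded that of 97.9% of genes tested, and the libraries within a group differed by about 3% (coefficient of variation 2.94% in VEC and 3.09% in Q63E). CD59 (ENSG00000085063, chromosome 11 from 33703010 to 33736491, minus strand) fell to 83.1% of its VEC mean, with a log2 fold change of −0.27 (SE 0.038, adjusted p = 0.00398 in limma). The drop is modest: 36.3% of genes tested had a larger change in size. GENCODE 29 places another protein-coding gene, AL049629.2, over CD59 on the same strand, and that gene was not analysed here.

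CD46, the membrane cofactor for factor I, lay the other way without passing. It was at 57.93, 50.76 and 56.04 in VEC and at 68.18, 61.9 and 60.54 in Q63E. The Q63E values are all higher, though the lowest of them exceeds the highest VEC value by a small margin. The log2 fold change was 0.21 (SE 0.068, 95% interval 0.04 to 0.37, adjusted p = 0.0697 in limma) for this gene (ENSG00000117335, chromosome 1 from 207752057 to 207795513, plus strand). With each library rescaled to the same total over all rows, CD46 did pass (0.24, adjusted p = 0.0426). Its pseudogene CD46P1 was listed at 0 in all 6 libraries.

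CD46 and CD55 belong to the regulators of complement activation cluster on the long arm of chromosome 1 and lie 365 kb apart, with 0 tested genes between them. The complement receptor genes CR2 and CR1, which lie there too, did not exceed 0.05 in any library. The ratio of CD55 to CD46 within a library was 0.271, 0.361 and 0.351 in VEC and 0.138, 0.125 and 0.158 in Q63E. The ratio of CD59 to CD46 was 6.38, 6.99 and 6.24 in VEC and 4.21, 4.89 and 5 in Q63E. Both ratios separate the groups fully (exact two-sided permutation p = 0.1 each, the smallest that 3 against 3 allow, and 0.12 when adjusted over the 6 ratios computed). The single genes fix that separation, and with it the p: CD55 and CD59 were lower and CD46 higher in every Q63E library. The ratios therefore describe the levels and are no further evidence. Because the 2 levels of a ratio come from the same library, a shared scaling factor drops out.

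**Figure D2:**
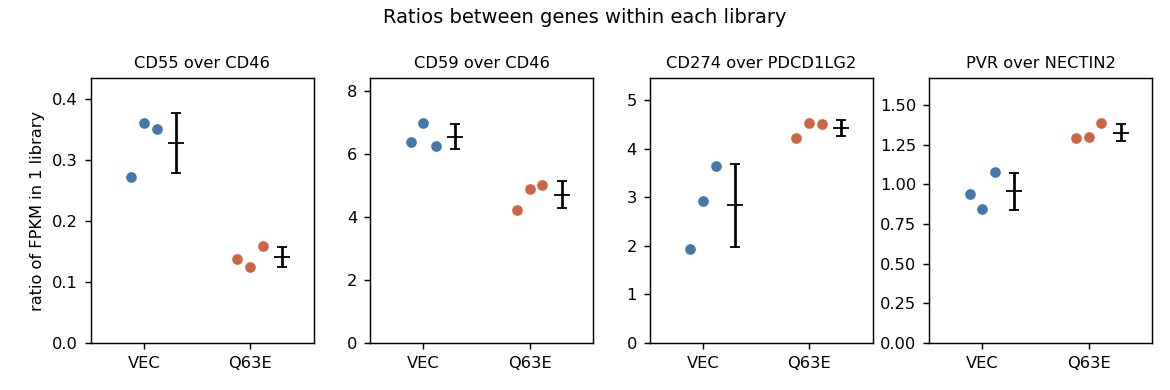
Ratios of FPKM between pairs of genes within each library (vertical axes, from 0), with VEC and Q63E libraries as points and the mean and SD of each group in black. The ratios of CD55 and CD59 to CD46 are lower in every Q63E library, and those of CD274 to PDCD1LG2 and of PVR to NECTIN2 are higher in every Q63E library. The ratios of CD59 to CD55 and of CD276 to CD274 were also computed and are not drawn.

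The PD-1 ligands did not pass. CD274 (ENSG00000120217, chromosome 9 from 5450503 to 5470566, plus strand) was at 5.13, 7.57 and 8.47 in VEC and at 7.86, 9.94 and 9.14 in Q63E. The groups overlap, and VEC replicate 1 is the lowest of all 6 libraries. The log2 fold change was 0.33 (SE 0.176, 95% interval −0.09 to 0.75, adjusted p = 0.225 in limma), so an increase to 1.68 times or a decrease to 0.937 times on the FPKM + 1 scale lies within the interval. Without VEC replicate 1 the value was 0.14 (adjusted p = 0.45), less than the 0.33 from all 6 libraries by over 1.5 times.

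PDCD1LG2 (ENSG00000197646, chromosome 9 from 5510570 to 5571254, plus strand) starts 40.0 kb after the end of CD274 and had the lowest level of the set. It was at 2.65, 2.58 and 2.33 in VEC and at 1.86, 2.19 and 2.03 in Q63E. The Q63E libraries are all lower, by a small margin (log2 fold change −0.22, SE 0.12, 95% interval −0.51 to 0.07, adjusted p = 0.234 in limma). The ratio of CD274 to PDCD1LG2 was 1.94, 2.93 and 3.64 in VEC and 4.23, 4.54 and 4.5 in Q63E. That ratio does not overlap between groups (exact two-sided permutation p = 0.1, adjusted 0.12), although neither gene passed by itself.

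CD276 (B7-H3), a B7-family ligand common on carcinoma cells, was nearly level. It was at 50.23, 57.03 and 50.69 in VEC and at 48.4, 55.86 and 52.75 in Q63E. The groups overlap almost completely. The log2 fold change was −0.01 (SE 0.073, adjusted p = 0.946 in limma) with a 95% interval of −0.18 to 0.17, and its sign turned under some alternatives. The gene (ENSG00000103855) lies on chromosome 15 from 73683966 to 73714518, plus strand. The ratio of CD276 to CD274 was 9.79, 7.53 and 5.98 in VEC and 6.16, 5.62 and 5.77 in Q63E. Of the ratios computed, it was the only one whose groups overlapped (exact two-sided permutation p = 0.2).

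PVR (CD155) and NECTIN2 (CD112) bind the inhibitory receptor TIGIT and the activating receptor CD226. PVR (ENSG00000073008, chromosome 19 from 44643798 to 44663583, plus strand) was at 32.6, 32.6 and 34.72 in VEC and at 37.04, 35.64 and 43.38 in Q63E. The Q63E libraries are all higher, with replicate 3 well above the other two, and the gene did not pass (log2 fold change 0.21, SE 0.079, adjusted p = 0.107 in limma). Without Q63E replicate 3 its log2 fold change was 0.12 (adjusted p = 0.187).
NECTIN2 (ENSG00000130202, chromosome 19 from 44846175 to 44889228, plus strand) was at 34.67, 38.54 and 32.14 in VEC and at 28.63, 27.41 and 31.15 in Q63E. The Q63E libraries are all lower, but the gene narrowly missed the threshold (log2 fold change −0.26, SE 0.08, 95% interval −0.46 to −0.07, adjusted p = 0.0563 in limma). It passed without VEC replicate 3 (−0.32, adjusted p = 0.0461) and when genes with a mean of at least 5 were tested (adjusted p = 0.045).
The ratio of PVR to NECTIN2 was 0.94, 0.846 and 1.08 in VEC and 1.29, 1.3 and 1.39 in Q63E. The ratios do not overlap (exact two-sided permutation p = 0.1, adjusted 0.12). This too was fixed by the single genes, since PVR was higher and NECTIN2 lower in every Q63E library.

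CD47, which signals to macrophages through SIRPA, did not pass. It was at 39.72, 35.19 and 33.52 in VEC and at 36.13, 31.95 and 35.91 in Q63E. The groups overlap. The log2 fold change was −0.06 (SE 0.08, 95% interval −0.25 to 0.13, adjusted p = 0.641 in limma). The gene (ENSG00000196776) lies on chromosome 3 from 108043094 to 108091862, minus strand.

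**Figure D3:**
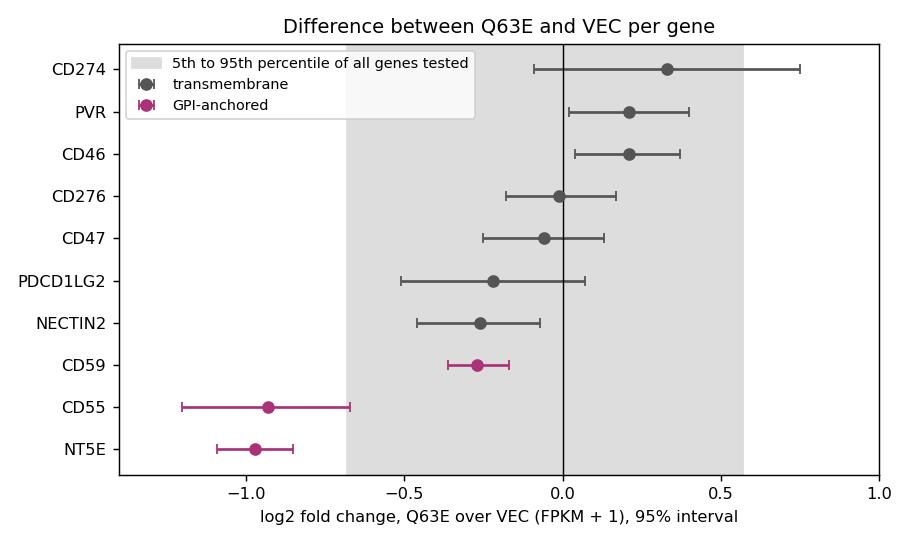
Log2 fold change of each gene between Q63E and VEC on the FPKM + 1 scale (horizontal axis) with its 95% interval from limma, GPI-anchored members in purple and transmembrane members in grey; the shaded band spans the 5th to 95th percentile of all genes tested. NT5E and CD55 lie beyond the lower edge of the band at −0.68, and the other 8 genes lie within it. The colours by anchor follow a grouping made after the values were seen.

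Levels within a group, which FPKM makes comparable between genes, spanned a wide range. In VEC the order was CD59 at 358 ± 10.5 (SD, n = 3), CD46 at 54.9 ± 3.72, CD276 at 52.6 ± 3.8, NT5E at 44.8 ± 2.41, CD47 at 36.1 ± 3.21, NECTIN2 at 35.1 ± 3.22, PVR at 33.3 ± 1.22, CD55 at 17.9 ± 2.01, CD274 at 7.06 ± 1.73 and PDCD1LG2 at 2.52 ± 0.168. The libraries of CD46 and CD276 overlapped, as did those of CD47, NECTIN2 and PVR from each to the next. In Q63E the order was CD59 at 298 ± 9.21, CD46 at 63.5 ± 4.08, CD276 at 52.3 ± 3.75, PVR at 38.7 ± 4.12, CD47 at 34.7 ± 2.35, NECTIN2 at 29.1 ± 1.91, NT5E at 22.4 ± 0.287, CD274 at 8.98 ± 1.05, CD55 at 8.89 ± 1.03 and PDCD1LG2 at 2.03 ± 0.165. There PVR overlapped with CD47 and CD274 with CD55. NT5E thus stood above CD47, NECTIN2 and PVR in VEC and below all 3 in Q63E.

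Neighbours of some other genes named in the text had median log2 fold changes as far from 0 as −0.47 (VIM) and 0.36 (CMTM6). For this reason each of the 10 genes was set beside its own neighbours. The median log2 fold change of up to 25 tested genes on each side ran from −0.12 for PVR to 0.09 for PDCD1LG2. With that median subtracted, NT5E was at −1 and CD55 at −0.85, close to their own values. CD59 was at −0.33 in place of −0.27, since its neighbours had a median of 0.07. CD46 was at 0.31, PVR at 0.33, NECTIN2 at −0.17 and PDCD1LG2 at −0.31, and these differences carry no test.

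**Figure D4:**
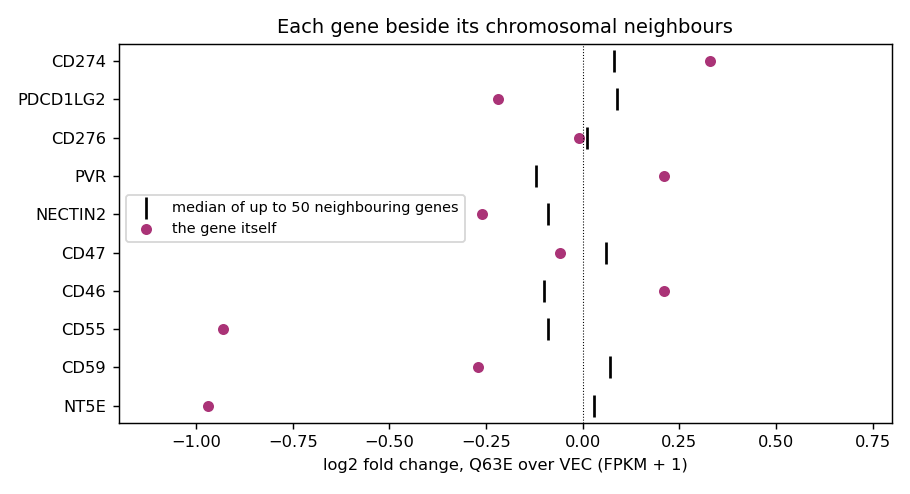
Log2 fold change between Q63E and VEC (horizontal axis, FPKM + 1) of each gene (purple points) and the median of up to 50 tested genes around it on its chromosome (black bars). All 10 medians lie between −0.12 and 0.09, while NT5E and CD55 lie near −1.

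Other ligands that act on T cells and natural killer cells were taken from a list of 38, of which 18 were tested. Of these 1 rose and 6 fell, with a median log2 fold change of −0.13. The share to set beside this and every list below is that of all genes tested. There 25.3% passed, 14.0% lower and 11.3% higher, and no list was tested as a set. The 7 calls became 4 without VEC replicate 3 or without Q63E replicate 1. CD70, the ligand of CD27, was at 59.58, 53.7 and 65.15 in VEC and at 13.03, 13.34 and 13.36 in Q63E, and fell by 2.08 on the log2 scale (SE 0.074, adjusted p = 2.68e-05 in limma). This change is larger than that of any of the 10 genes. NECTIN1, an adhesion relative of NECTIN2, fell from 4.29 ± 0.379 to 1.02 ± 0.0917, and TNFSF9 (the 4-1BB ligand) from 4.09 ± 0.201 to 1.22 ± 0.243. CD70 and TNFSF9 both lie on chromosome 19, each with a median of −0.14 among its neighbours. The median was −0.21 around NECTIN1. VSIR (VISTA) rose from 7.97 ± 0.967 to 11.3 ± 0.878 (adjusted p = 0.0206). Its call was lost without VEC replicate 3, Q63E replicate 1 or Q63E replicate 3 (adjusted p = 0.0572, 0.0688 and 0.0603). Of 7 receptors of the members, 6 stayed below 1 in every library, PDCD1, TIGIT and CD226 among them. The CD47 receptor gene SIRPA fell from 28.3 ± 0.989 to 21.5 ± 1.45 (adjusted p = 0.00647).

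**Figure D5:**
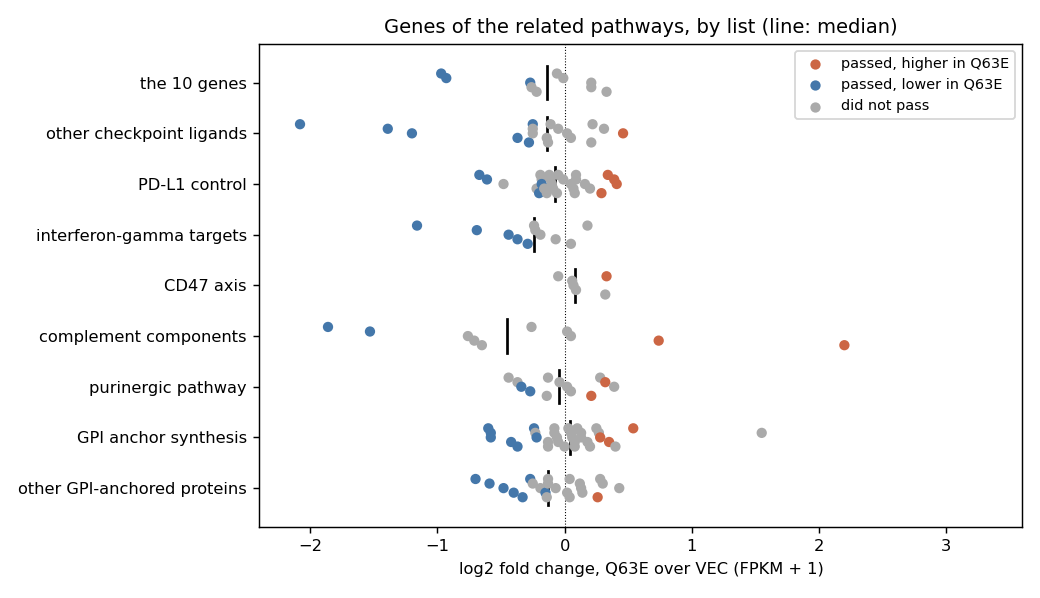
Log2 fold change between Q63E and VEC (horizontal axis, FPKM + 1) of every tested gene in each list, with black lines at the list medians and colours for genes that passed the test higher (orange), lower (blue) or did not pass (grey). CD70, CLU and C3 are the points farthest to the left, and SERPING1 is farthest to the right.

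Factors known to act on PD-L1 transcription or stability were mixed: of 28 tested, 4 rose and 4 fell, with a median of −0.07. HIF1A, the oxygen-regulated transcription factor, fell from 61.6 ± 4.84 to 38.5 ± 4.2 (adjusted p = 0.00347 in limma) and NFKB1 from 30.4 ± 2.05 to 19.5 ± 1.82 (adjusted p = 0.00326). The neighbours of NFKB1 on chromosome 4 had a median of −0.34, against its own −0.61. CMTM6, which protects PD-L1 protein from degradation, rose from 20.7 ± 0.435 to 27.5 ± 0.614 (0.39 on the log2 scale, adjusted p = 0.00179), and its chromosome 3 neighbours had a median of 0.36. STAT2 rose from 12.1 ± 0.734 to 16.5 ± 1.36 (adjusted p = 0.0123). IRF1, a transcription factor through which interferon gamma raises CD274, did not pass (14.9 ± 1.1 in VEC and 12.9 ± 0.9 in Q63E, adjusted p = 0.132 in limma), and is named outside the rule, after its values were seen.

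Of 11 tested interferon gamma targets 5 fell and 0 rose, with a median of −0.24. Over all genes tested 14.0% fell and 11.3% rose. The 5 calls became 2 or 3 without VEC replicate 1 or 3 or Q63E replicate 1 or 2. GBP2, an interferon-induced GTPase, went down from 2.51 ± 0.519 to 0.57 ± 0.217 (−1.16 on the log2 scale, adjusted p = 0.00644 in limma), and GBP1 from 2.76 ± 0.53 to 1.33 ± 0.198 (adjusted p = 0.0222). TAP1, the peptide transporter, fell from 12.3 ± 1.02 to 8.81 ± 0.652 and ICAM1, an adhesion ligand for leukocytes, from 72.9 ± 3.15 to 56.3 ± 6.18. The call of GBP1 was lost without VEC replicate 1 or 3 or Q63E replicate 1 or 2 (adjusted p from 0.0548 to 0.0694). That of ICAM1 was lost without VEC replicate 1 or 3 or Q63E replicate 1 (adjusted p from 0.0553 to 0.0639).

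For CD47, 6 partners and modifying enzymes were tested. Of these 1 rose and 0 fell, and the gene that rose was THBS2 (thrombospondin 2), from 6.12 ± 0.571 to 7.93 ± 0.42 (adjusted p = 0.0398 in limma), named outside the rule after its values were seen. This call was lost in 8 of 16 alternatives, among them leaving out any 1 library other than VEC replicate 1. The most abundant, CALR (calreticulin, which prompts engulfment when it reaches the surface), was at 423 ± 4.61 in VEC and 409 ± 2.76 in Q63E (adjusted p = 0.248 in limma). LRP1, its receptor on phagocytes, was at 17.9 ± 0.693 and 18.8 ± 1.7 (adjusted p = 0.582).

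Complement components and soluble regulators were mostly low, with 21 of 31 below 1 in every library and 10 tested. Of these 2 rose and 2 fell, with a median of −0.45. C3, the central component whose fragments CD46 and CD55 control, was at 46.29, 39.24 and 45.65 in VEC and at 17.55, 13.27 and 13.05 in Q63E. It fell to 0.334 of its VEC mean (log2 fold change −1.53, SE 0.124, adjusted p = 0.000507 in limma), with a median of −0.13 among its neighbours. C3 lies on chromosome 19, as do CD70 and TNFSF9, which fell, and CFD, which rose. CLU (clusterin, a soluble inhibitor of the membrane attack complex) went down from 27.7 ± 4.9 to 6.9 ± 1.35 (−1.86 on the log2 scale, adjusted p = 0.000649), with a median of −0.34 among its neighbours. SERPING1, the inhibitor of C1r and C1s, was listed at 0 in all 3 VEC libraries and at 3.74, 4.07 and 3.06 in Q63E (adjusted p = 0.000359). CFD (factor D) rose from 1.86 ± 0.679 to 3.7 ± 0.37 (adjusted p = 0.0304), a call that was lost without VEC replicate 2 or 3 or any 1 Q63E replicate (adjusted p from 0.0643 to 0.0911). The 8 complement receptor genes were below 1 in every library.

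Around NT5E in the purinergic pathway, 13 of 28 genes were tested, 2 rose and 2 fell, with a median of −0.04. ADORA2B, a low-affinity adenosine receptor, was at 34.57, 33.4 and 32.55 in VEC and at 26.26, 26.26 and 26.31 in Q63E, and fell by 0.34 on the log2 scale (adjusted p = 0.00254 in limma). PANX1, a channel that releases ATP, fell from 24.3 ± 0.864 to 20 ± 0.483 (adjusted p = 0.0108). ADK, the kinase that returns adenosine to AMP inside the cell, rose from 82.7 ± 1.15 to 95.8 ± 4.88 (adjusted p = 0.0184), and ENTPD7, an intracellular nucleotidase, from 7.01 ± 0.22 to 8.97 ± 0.0833 (adjusted p = 0.0159). The call of ADK was lost without VEC replicate 1 or 2 or Q63E replicate 1 (adjusted p from 0.0526 to 0.0549), and that of ENTPD7 without any 1 Q63E replicate (0.0504 to 0.0533). Without Q63E replicate 1 the calls in the list went from 4 to 2. ENTPD1 (CD39), which supplies AMP to NT5E by hydrolysing ATP and ADP, did not pass (1.72 ± 0.105 and 1.76 ± 0.255, adjusted p = 0.947, named outside the rule).

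Since the members that fell share a GPI anchor, a grouping made after their values were seen, other genes with that anchor and the enzymes that build it are given next. Of 37 other GPI-anchored proteins 23 were tested, and 1 rose and 7 fell, with a median of −0.13. Among all genes tested 14.0% fell and 11.3% rose. MELTF, an iron-binding surface protein, went down from 74.2 ± 0.285 to 45.2 ± 0.864 (−0.7 on the log2 scale, adjusted p = 9.13e-05 in limma). Its chromosome 3 neighbours had a median of −0.21. Those of BST2, EFNA1 and GPC1, named next, had medians of −0.15, −0.03 and 0.05. BST2 (tetherin) fell from 118 ± 1.97 to 78 ± 3.95 (adjusted p = 0.000416), and the proteoglycan GPC1 from 34.2 ± 1.03 to 25.7 ± 1.65 (adjusted p = 0.00429). EFNA1, an ephrin, fell from 15.1 ± 2.92 to 10.4 ± 0.427 (adjusted p = 0.0443), and its call was lost without any 1 replicate other than VEC replicate 2 (adjusted p from 0.0906 to 0.119). With each library rescaled over all rows 5 of the 23 fell and 2 rose, and leaving out 1 library left 4 to 6 falls. Leaving out VEC replicate 3, Q63E replicate 1 or Q63E replicate 3 took the calls in this list from 8 to 5.

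Of 32 genes listed for GPI anchor synthesis, attachment and remodelling, all tested, 3 rose and 7 fell, with a median log2 fold change of 0.04. The falls include genes not specific to the anchor, named here outside the rule. DPAGT1, which starts N-glycan synthesis, went from 29.8 ± 1.2 to 25 ± 0.969 (adjusted p = 0.0196 in limma). MPDU1, a factor in the use of dolichol-linked mannose, went from 75.6 ± 1.99 to 64.7 ± 2.02 (adjusted p = 0.0104 in limma). PIGO, which adds ethanolamine phosphate to the anchor, went down from 18.4 ± 1.03 to 12 ± 0.422 (−0.58 on the log2 scale, adjusted p = 0.00148 in limma), and its chromosome 9 neighbours had a median of −0.33. PIGP fell from 10.7 ± 1.13 to 6.7 ± 1.1 (−0.6, neighbours −0.39, adjusted p = 0.0168) and PIGZ from 2.74 ± 0.293 to 1.51 ± 0.252 (−0.58, neighbours −0.22, adjusted p = 0.0275). PIGZ lies on chromosome 3, as does MELTF of the list before, so their falls may not be separate. PIGH, a subunit of the enzyme for the first step, rose from 14.2 ± 1.82 to 21.1 ± 3.13 (0.54, adjusted p = 0.0243). The calls of PIGP, PIGZ and PIGH were lost when single libraries were left out. For PIGP these were VEC replicates 1 and 3 and Q63E replicate 3 (adjusted p from 0.0526 to 0.0552). For PIGZ they were all but Q63E replicate 1 (0.0536 to 0.0803), and for PIGH all but VEC replicate 3 and Q63E replicate 1 (0.0571 to 0.0727). The count in the list dropped from 10 to between 4 and 6 on leaving out any 1 library. PIGA, the catalytic subunit of the first step, did not pass (15 ± 0.97 and 15.6 ± 1.27, adjusted p = 0.652, named outside the rule).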

How the data were processed

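Per the submitters' processing notes, the tools were HISAT2 (2.1.0) and Bowtie2 and the build was GRCh38.p10, without what each was used for. For the counter and the annotation the answer is "not given in the sources used here". Each library has its own deposited table of 58882 rows, with values to 2 decimals. Neither labels nor headers name the unit: the deposited values were taken as FPKM because totals differ between libraries and are not whole numbers. Read depth is unknown, so no counting interval is given. A value of 0 may be a failed estimate.

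Symbols came from a table that paired 57392 of 58233 Ensembl identifiers, and coordinates from GENCODE 29 (GRCh38). The 649 assembled loci without a name were left out of the test. Values were tested as log2(FPKM + 1) for 13346 genes with a mean of at least 1, with limma 3.58.1 (trend, two-sided, group alone) in R 4.3.3 and Benjamini-Hochberg adjustment, and the steps were tested on simulated data. Fold changes on this scale understate those of low genes. Strand is not stated, so reads of overlapping genes may be shared. The design kept limma for the FPKM unit. Members and gene lists were chosen with earlier results of these data known. The text names all 10 genes and, of each other list, up to 4 that passed with the largest change, or the 2 most abundant where fewer than 2 passed; others are said to be outside the rule.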

Additional observations from a re-analysis of the deposited data

How the results depend on the processing

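NT5E, CD55 and CD59 passed, lower in Q63E, in all 16 alternatives that carry a test, with log2 fold changes of −1 to −0.93, −1.02 to −0.85 and −0.28 to −0.23. The number of members called was 3 or 4 throughout. Leaving out 1 library each gave 2350 to 2630 genes called in place of 3383. Rescaling over all rows gave 1829 higher and 1594 lower in place of 1510 and 1873. The replicate numbers did not pair the samples (correlation of same-numbered deviations −0.042, −0.009 and −0.025), and with the replicate block 2208 genes and the same number of members, 3, passed. Among the genes that the naming rule took from the lists, the block ended the calls of VSIR, CFD, ENTPD7, PIGP, PIGZ, PIGH, EFNA1, TAP1 and ICAM1 (adjusted p from 0.0529 to 0.0789). It also ended that of THBS2, so that the CD47 axis went from 1 call to 0, and it left 3 falls among the other GPI-anchored proteins in place of 7. No pseudocount or rescaling moved the median of all genes by more than 0.034. NECTIN2 passed with a minimum mean of 5 (−0.26) and without VEC replicate 3; over left-out libraries it ran from −0.32 to −0.2. CD46 passed with each library rescaled over all rows (0.24). CD276 turned positive with that rescaling (0.03), and over left-out libraries ran from −0.06 to 0.05. CD47 ran from −0.11 to 0.01 over left-out libraries and was above 0 without VEC replicate 1. With the neighbours' median subtracted, PDCD1LG2 was at −0.31, PVR at 0.33, CD46 at 0.31 and CD59 at −0.33. The cause was not tested in any of these cases. Counts in the lists moved more: other checkpoint ligands 7 (4 to 7 over the alternatives), CD47 axis 1 (0 to 1), complement components 4 (2 to 4), purinergic pathway 4 (2 to 6), GPI anchor synthesis 10 (4 to 10), other GPI-anchored proteins 8 (4 to 8) and interferon gamma targets 5 (2 to 5). Of the 34 genes that the naming rule took from the lists and that passed, 23 did so in every alternative that tested them. Unknown depth limits what can be said of genes below 1.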
